A study of Xenopus tropicalis with 12 samples.

Results

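Basic helix-loop-helix (bHLH) genes were followed across the early gastrula of Xenopus tropicalis, a diploid frog. Members were the genes with a helix-loop-helix domain in the catalog of transcription factors (TFs) that accompanies the series, except 17 that were left out by name (Id, Myc/Max and Mxd genes, and early muscle and mesoderm genes such as myod1). Of 110 such genes among 1240 TFs, 93 remained, and 91 of these were found among the 26550 gene models of the deposited table. They were sorted by name and known family into 21 hes/hey genes, 3 E proteins, 14 proneural genes, 6 genes of the Olig family, 11 PAS genes, 13 genes with a leucine zipper and 25 other tissue-specific genes. The 2 members without a gene model, ahrr and mlxipl, were not analysed here.

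No treatment, allele or agent is given in the labels for any group. Embryos at Nieuwkoop and Faber stage 10 to 10.25 were cut into dorsal, lateral and ventral marginal zones (rich in mesoderm), animal caps (rich in ectoderm) and vegetal masses (rich in endoderm), with whole sibling embryos alongside, while the text of the series gives stage 10.5. About 30 explants were pooled per region, with more for the lateral marginal zone. Each of the 6 groups had 2 libraries, replicate 1 from 1 clutch and replicate 2 from another, so that 12 non-stranded polyA+ libraries were made. Without the clutch in the model, a p-value here covers the spread between 2 pools of different clutches. With the clutch as a block, it covers what is left once the mean difference between the clutches is taken out. Where the clutches themselves are compared, each side is 1 clutch. A p-value then measures only how steady a difference is over the libraries of these 2 clutches. Clutch cannot be told apart from the day of handling. In bulk pieces of tissue, fewer cells of a type and less RNA per cell cannot be told apart either.

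bHLH proteins bind DNA as dimers at E-boxes or related sites. E proteins (tcf3, tcf4 and tcf12) are broadly expressed partners of tissue-specific bHLH activators such as the proneural proteins, and Id proteins, which lack the basic region, sequester them. Hes and Hey proteins are repressors, many of them activated by Notch signalling through rbpj, and in Xenopus several are known from the organizer, the neural plate border and the segmenting mesoderm. PAS members sense or time (oxygen, ligands, day and night), and members with a leucine zipper include regulators of growth, lipids and lysosomes.

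The dissected pieces were checked against markers of the germ layers. Foxi1 averaged 116 TPM in animal caps against 1.27 TPM in vegetal masses, gata6 averaged 7.56 TPM in animal caps against 455 TPM in vegetal masses, and gsc averaged 390 TPM in dorsal against 5.02 TPM in ventral marginal zones. The organizer genes were also high in vegetal masses, where gsc had 160 and 262 TPM. Expected counts per library ranged from 14634582 to 29166548, and 3 counts of a member of median length equalled 0.131 to 0.272 TPM. TPM, a share of the library's transcripts, corrects for transcript length, so levels of different genes can be set side by side on that scale.

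In whole embryos 47 of the 91 members averaged at least 1 TPM, or 51.6%, against 52.0% of all gene models and 66.7% of the other TFs. Expression above 10 TPM was found for 22 members. At the other end, 7 members were at 0 in all 12 libraries, and 22 members, these 7 included, had at most 3 counts in every library. The hes/hey genes (17 of 21), the E proteins (3 of 3) and the leucine zipper genes (10 of 12) were mostly at 1 TPM or more. PAS genes (5 of 10) were evenly split. Proneural genes (6 of 14), Olig genes (2 of 6) and other tissue-specific genes (4 of 25) were more often below 1 TPM. No proneural gene averaged above 6.23 TPM. The most abundant members were the Myc relative mycl1 (277 ± 44.3 TPM, SD), hes7.2 (195 ± 76.5 TPM), usf2 (172 ± 10.4 TPM), hes4 (158 ± 19.4 TPM) and hes6.1 (132 ± 21.3 TPM, n = 2 each).

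A filter on low counts left 55 members for the tests, so that 36 were not tested, and a member can pass it through a single region where it is high. The 36 comprised hes5.2, hes8, hey2, mitf, the Olig family members olig1, olig2 and bhlha15, the PAS members npas2, npas4 and pasd1, 7 proneural genes (ascl4, atoh7, atoh8, neurod2, neurod4, neurod6 and the unnamed Xetrov90018166) and 19 other tissue-specific genes. Among the 19 were the muscle regulators myog and myf6, the heart and limb gene hand1, the blood genes lyl1 and tal2, and twist2. The highest level that any of the 36 reached in a library was 1.71 TPM, from 9 counts of bhlha15 in whole embryo replicate 2.

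Regional differences were tested over the 5 regions with edgeR's quasi-likelihood test, Benjamini-Hochberg adjusted over all 15727 genes. Without the clutch in the model, 3 members differed between regions (bhlhe22, hes3.1 and tcf12), against a background of 3.83% of all genes tested. With the clutch as a block, which uses the pairing of regions from the same embryos, 36 of 55 members differed, against 29.9% of all genes tested. These 36 comprised 16 of 18 hes/hey genes, 2 of 3 E proteins, 5 of 7 proneural genes, 3 of 3 Olig genes, 2 of 7 PAS genes, 5 of 11 leucine zipper genes and 3 of 6 other genes. Some of these calls were unsteady. They held in 2 of the 10 fits that left out a library for olig3 and tfec, in 3 for arnt and tfeb and in 4 for olig4. Leaving out 1 library at a time with the block gave 29 to 35 members. Without the block, 1 member remained past the threshold when a library of the animal cap, ventral marginal zone or vegetal mass was left out.

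**Figure D1:**
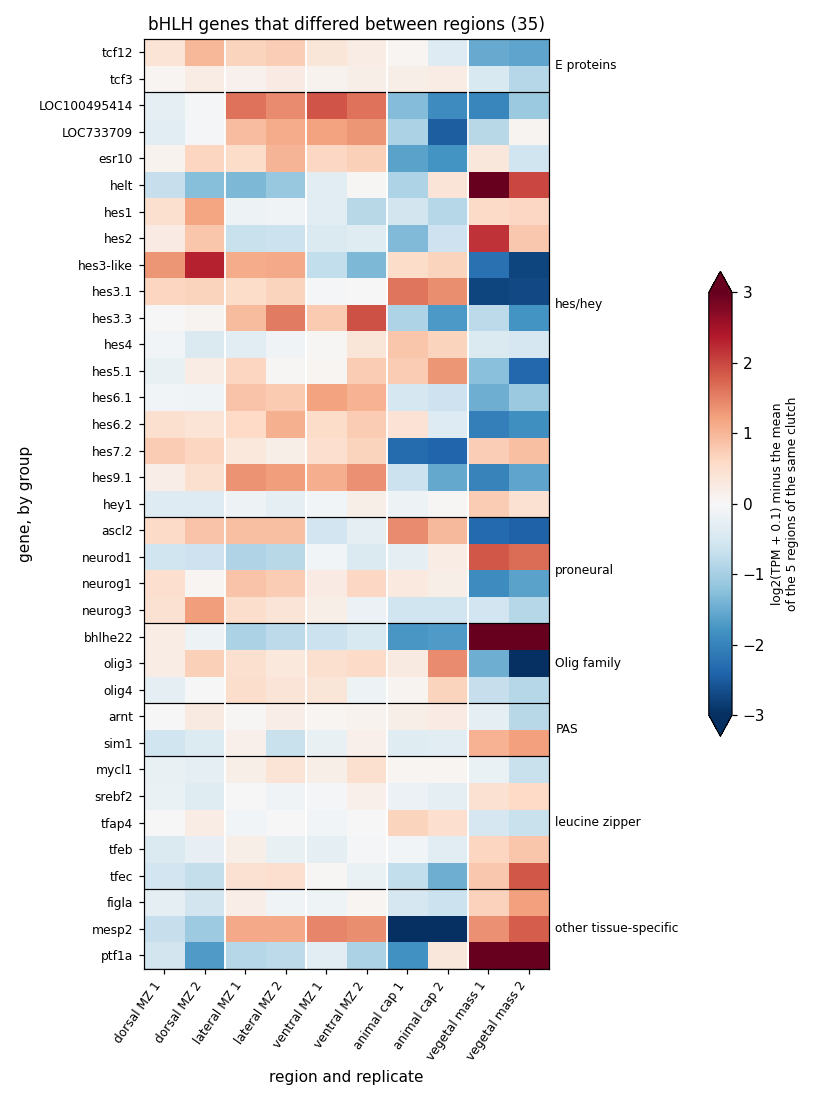
Regional profile of 35 of the 36 bHLH genes that differed between regions with clutch as a block. Rows are genes by group, columns are the 10 region libraries, and colour is log2(TPM + 0.1) minus the mean of the 5 regions of the same clutch, with values beyond 3 or -3 shown at the end of the scale. The 2 libraries of a region have like colours in most rows, and the vegetal mass has the strongest colours for genes such as bhlhe22, ptf1a, hes3.1 and hes3-like.

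Among the 55, the region with the highest mean was the vegetal mass for 21 members, the animal cap for 12, the dorsal marginal zone for 9, the ventral marginal zone for 8 and the lateral marginal zone for 5. It was the same region in both clutches for 29 members, 15 of them highest in the vegetal mass. The like counts over all genes tested were not made, so these counts do not set bHLH genes apart from other genes.

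Summed TPM of the 3 E proteins was lower in vegetal masses than in the other regions. It was 142 and 125 in animal caps against 81.6 and 58.3 in vegetal masses of replicates 1 and 2, and the 6 marginal zone libraries held 135 to 166. Tcf3 supplied 55.6% to 75.3% of this sum in each of the 12 libraries. Tcf3 had 96.6 and 91.7 TPM in animal caps against 61.5 and 43.3 TPM in vegetal masses, and 88.8 to 93.8 TPM in the marginal zones. Every other region lay above both vegetal libraries. The log2 fold change of tcf3 in animal caps over vegetal masses was 0.999 (SE 0.22, edgeR adjusted p = 0.0338).

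Tcf12 had 45.4 and 65.4 TPM in the dorsal, 54.8 and 54.0 TPM in the lateral and 44.0 and 37.9 TPM in the ventral marginal zone, against 35.8 and 24.8 TPM in animal caps and 11.96 and 10.86 TPM in vegetal masses. All 6 marginal zone libraries were above all 4 pole libraries. It was the only member called for marginal zones over poles without the block, where 0.458% of all genes were called higher, at a log2 fold change of 1.49 (SE 0.20, edgeR adjusted p = 0.0278), and no member was called when any of 9 of the 10 libraries was left out. With the block the adjusted p was 0.000732. Tcf4, the least abundant, had 9.47 and 8.0 TPM in animal caps against 8.15 and 4.14 TPM in vegetal masses, a log2 fold change of 0.66 (SE 0.22) that passed only with the block (edgeR adjusted p = 0.0353 with it and 0.253 without). This call held in 3 of the 10 fits that left out a library, and tcf4 was not called over the 5 regions (adjusted p = 0.113 with the block).

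Id genes, the inhibitors of E proteins, were measured as partners. Id3 reached 952 and 1430 TPM in animal caps against 406 and 805 TPM in vegetal masses, and id2 had 136 and 198 TPM in animal caps against 262 and 402 TPM in vegetal masses. With the block both differed (log2 fold change 1.17 for id3, edgeR adjusted p = 5.04e-05, and -0.85 for id2, 0.000135), and without it neither did (0.435 and 0.384). Id2 had 55.6 and 73.3 TPM in dorsal against 123 and 194 TPM in ventral marginal zones (log2 fold change -1.20, edgeR adjusted p = 0.000623 with the block and 1 without). Id4 stayed between 0.83 and 2.56 TPM. The Notch effector rbpj had 10.4 to 22.1 TPM over the 12 libraries, and its log2 fold change in animal caps over vegetal masses was 0.69 (edgeR adjusted p = 0.00871 with the block and 0.189 without).

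Of 18 hes/hey genes tested over the 5 regions, 16 differed with the block and 1, hes3.1, without it, against 29.9% and 3.83% of all genes tested. The summed TPM of the family was 429 and 647 in the dorsal, 502 and 670 in the lateral and 584 and 809 in the ventral marginal zone, against 301 and 343 in animal caps and 350 and 530 in vegetal masses. Within each clutch every marginal zone was above both poles. Hes7.2 was 35.7% and 41.7% of it in dorsal marginal zones and 42.6% and 60.2% in vegetal masses, hes4 was 35.3% and 32.9% of it in animal caps, and in ventral marginal zones hes6.1 was 35.28% and 27.96% of it and hes7.2 21.9% and 33.7%, so that hes7.2 was the larger there in replicate 2.

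Hes7.2, the most abundant of the family, was scarce only in the animal cap. It had 153 and 270 TPM in the dorsal, 111 and 192 TPM in the lateral and 128 and 273 TPM in the ventral marginal zone. Animal caps had 18.1 and 32.8 TPM against 149 and 319 TPM in vegetal masses. Both animal cap libraries were below every other library, while the other regions were set apart by clutch more than by place. The log2 fold change in animal caps over vegetal masses was -3.03 with the block (SE 0.12, edgeR adjusted p = 2.77e-07) and -3.08 without it (SE 0.78, adjusted p = 0.0581). Its neighbour hes7.1, separated from it by 5 genes in RefSeq's order, had another profile, with 20.1 and 72.0 TPM in dorsal against 4.95 and 7.12 TPM in ventral marginal zones, and 16.5 and 36.6 TPM in animal caps against 12.5 and 7.31 TPM in vegetal masses. Its dorsal level was above its ventral level in both clutches, and the difference did not pass the test (log2 fold change 2.81, SE 0.63, edgeR adjusted p = 0.136 with the block and 1 without).

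Hes6.1 followed a dorsal to ventral gradient within the marginal zone. Its level was 84.5 and 101 TPM in dorsal, 161 and 190 TPM in lateral and 206 and 226 TPM in ventral marginal zones, with 63.3 and 71.6 TPM in animal caps against 32.6 and 51.0 TPM in vegetal masses. The order ventral, lateral, dorsal, animal cap, vegetal mass held in both clutches, and no 2 regions overlapped. Marginal zones were above poles by a log2 fold change of 1.58 (SE 0.09, edgeR adjusted p = 1.6e-05 with the block and 0.0608 without). Dorsal marginal zones were below ventral ones by -1.16 (SE 0.13, adjusted p = 0.00249 with the block and 1 without). Hes6.2, the adjacent gene in RefSeq's order, was far less abundant, with 1.25 and 0.74 TPM in animal caps against 0.14 and 0.21 TPM in vegetal masses.

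Hes4 and hes3.1 were highest in animal caps among the regions. Hes4, known from the neural plate border and neural crest, had 106 and 113 TPM in animal caps against 43.9 and 50.2 TPM in vegetal masses, with 46.8 to 91.7 TPM in the marginal zones (log2 fold change 1.36, SE 0.17, edgeR adjusted p = 0.000234 with the block and 0.0836 without). Hes3.1 had 32.5 and 35.1 TPM in animal caps against 1.49 and 1.95 TPM in vegetal masses, with 16.5 and 21.2 TPM in dorsal, 15.5 and 21.1 TPM in lateral and 10.3 and 13.2 TPM in ventral marginal zones, where the dorsal and lateral levels overlapped. Its animal cap over vegetal mass log2 fold change was 4.41 (SE 0.51, edgeR adjusted p = 0.00341), past the threshold in both models.

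**Figure D2:**
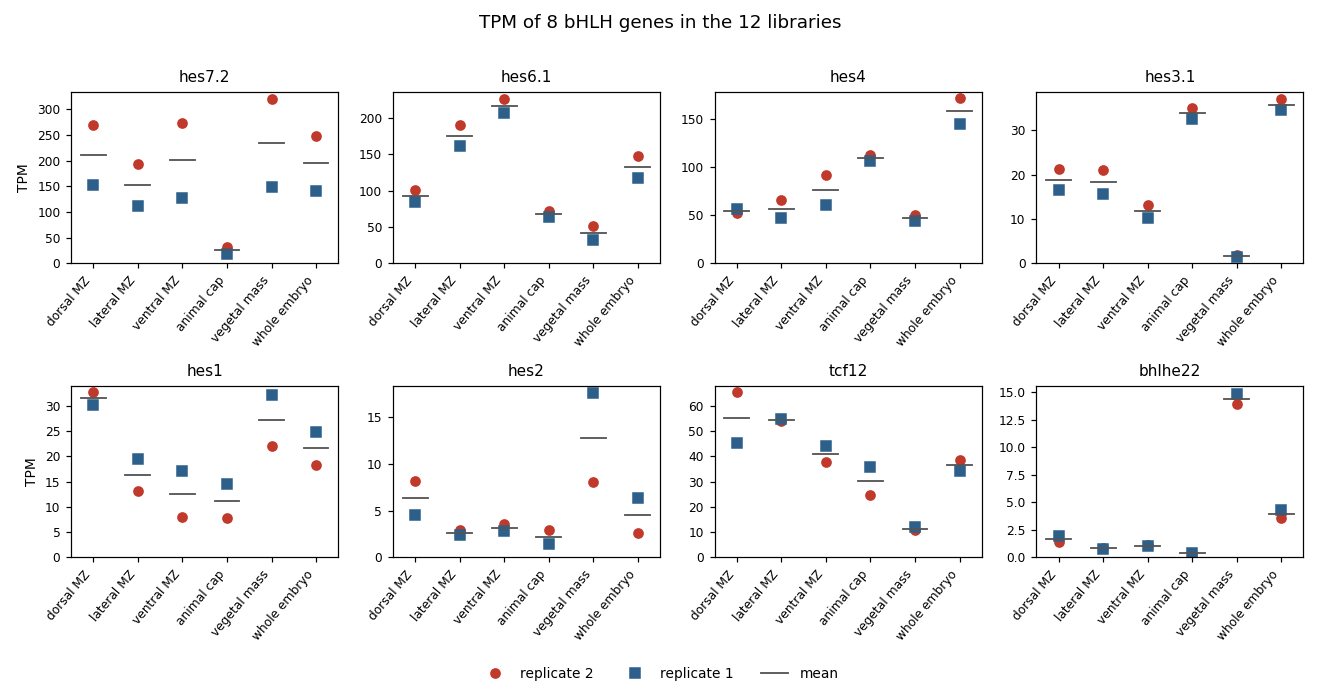
TPM of 8 bHLH genes in each of the 12 libraries. Circles are replicate 2 and squares replicate 1, each from its own clutch, and the line is their mean, with the y axis starting at 0 in every panel. Animal cap libraries of hes7.2 lie at 18.1 and 32.8 TPM, the ventral marginal zone is highest for hes6.1, whole embryos are highest for hes4 and hes3.1, and the vegetal mass is lowest for tcf12 and highest for bhlhe22.

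Hes1, hes2, hey1 and helt were highest or near highest in the vegetal mass. Hes1, a general Notch target, had 30.2 and 32.8 TPM in dorsal against 17.1 and 7.95 TPM in ventral marginal zones, and 14.62 and 7.82 TPM in animal caps against 32.2 and 22.0 TPM in vegetal masses. It was the dorsal and vegetal pieces of each clutch that held the most. The dorsal over ventral log2 fold change was 1.47 (SE 0.27, edgeR adjusted p = 0.0365 with the block and 1 without), and it kept its call in 3 of the 10 fits that left out a library. Hes2 had 1.47 and 2.92 TPM in animal caps against 17.6 and 8.03 TPM in vegetal masses (log2 fold change -2.52, adjusted p = 0.00417 with the block and 0.0717 without). In replicate 2 its log2(TPM + 0.1) minus the clutch mean was 0.82 in the dorsal marginal zone against 0.80 in the vegetal mass. In replicate 1 these values were 0.25 and 2.17, so the vegetal mass was highest there only. Hey1, a Notch target best known from blood vessels and heart, had 13.4 and 14.5 TPM in animal caps against 25.1 and 19.6 TPM in vegetal masses (-0.55, adjusted p = 0.0241 with the block and 0.306 without). Helt, known from the developing midbrain, had 0.38 and 2.99 TPM in animal caps against 8.88 and 9.31 TPM in vegetal masses (-2.71, adjusted p = 0.00716 with the block and 0.333 without).

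Hes3-like and hes5.1 were low in vegetal masses. Hes3-like had 3.28 and 9.98 TPM in dorsal, 2.83 and 4.37 TPM in lateral and 0.72 and 0.70 TPM in ventral marginal zones, and 1.88 and 3.13 TPM in animal caps against 0.19 and 0.20 TPM in vegetal masses. Vegetal libraries held 3 and 2 counts, so the pooled ratio of animal caps to vegetal masses was 11.9 of counts scaled to depth with an exact binomial 95% interval of 4.83 to 38.2, which covers counting error only. It was called for animal caps over vegetal masses in both models (edgeR adjusted p = 0.0363 without the block). Dorsal was 14.3 times ventral in replicate 2 and 4.56 times in replicate 1, and the log2 fold change was 3.07 with the block (SE 0.44, edgeR adjusted p = 0.00917) and 3.35 without it (SE 0.76, adjusted p = 0.462). Hes5.1, a neural Notch target, had 6.24 and 7.37 TPM in animal caps against 1.48 and 0.49 TPM in vegetal masses (log2 fold change 2.95, SE 0.56, edgeR adjusted p = 0.0218).

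In a row of neighbouring hes genes that were matched in RefSeq, all but hes3.1, at its end, were highest in lateral and ventral marginal zones within each clutch. RefSeq's annotation of another assembly (UCB_Xtro_10.0), used for names and order alone, matched 81 of the 91 members, and it places hes9.1, LOC100495414, LOC733709 and hes3.1 side by side, with esr10 apart from them by 1 gene. RefSeq names the row hes5.5 (esr10), hes5.7, hes5.8, hes5.9 and hes5.10 (hes3.1). Hes3.3, hes8 and hes3-like had no match there, so whether they belong to the row was not determined. RSEM divides reads that match several copies, so levels of near-identical members of the row are uncertain.

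LOC100495414 had 13.2 and 23.3 TPM in dorsal, 48.7 and 64.4 TPM in lateral and 58.6 and 75.3 TPM in ventral marginal zones, and 6.38 and 6.43 TPM in animal caps against 4.00 and 11.1 TPM in vegetal masses. LOC733709 had 18.5 and 21.1 TPM in dorsal, 44.9 and 46.9 TPM in lateral and 55.03 and 54.69 TPM in ventral marginal zones, with 12.2 and 3.82 TPM in animal caps against 13.2 and 23.2 TPM in vegetal masses. For both, lateral and ventral marginal zones were above every other dissected piece. Hes9.1 had 6.73 to 11.6 TPM in dorsal and 12.5 to 21.5 TPM in lateral and ventral marginal zones, and 3.67 and 2.78 TPM in animal caps against 1.37 and 2.69 TPM in vegetal masses. Esr10 had 3.23 to 7.31 TPM in the marginal zones, and 0.93 and 0.96 TPM in animal caps against 3.81 and 2.33 TPM in vegetal masses. The vegetal mass was above the dorsal marginal zone of the same clutch for esr10 in replicate 1 and for LOC733709 in replicate 2. In contrast, hes3.1 was above all marginal zones in the animal cap.

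Marginal zones over poles gave log2 fold changes of 2.62 (SE 0.19, edgeR adjusted p = 7.59e-05) for LOC100495414, 2.46 (SE 0.20, 8.71e-05) for hes9.1, 1.64 (SE 0.30, 0.0170) for LOC733709, 1.59 (SE 0.25, 0.00402) for esr10 and 1.1 (SE 0.16, 0.00230) for hes3.1, all with the block. None passed without it (adjusted p = 0.0622 to 0.255). The contrast averages log levels with equal weight per region, so 1 low region can set it. For hes3.1, whose vegetal level was the low one, the mean TPM of the marginal zones was 0.999 times that of the poles in replicate 2 and 0.830 times in replicate 1. Dorsal marginal zones were below ventral ones for LOC100495414 (-1.86, SE 0.26, edgeR adjusted p = 0.00969 with the block and 1 without), a call that held in 6 of the 10 fits that left out a library.

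**Figure D3:**
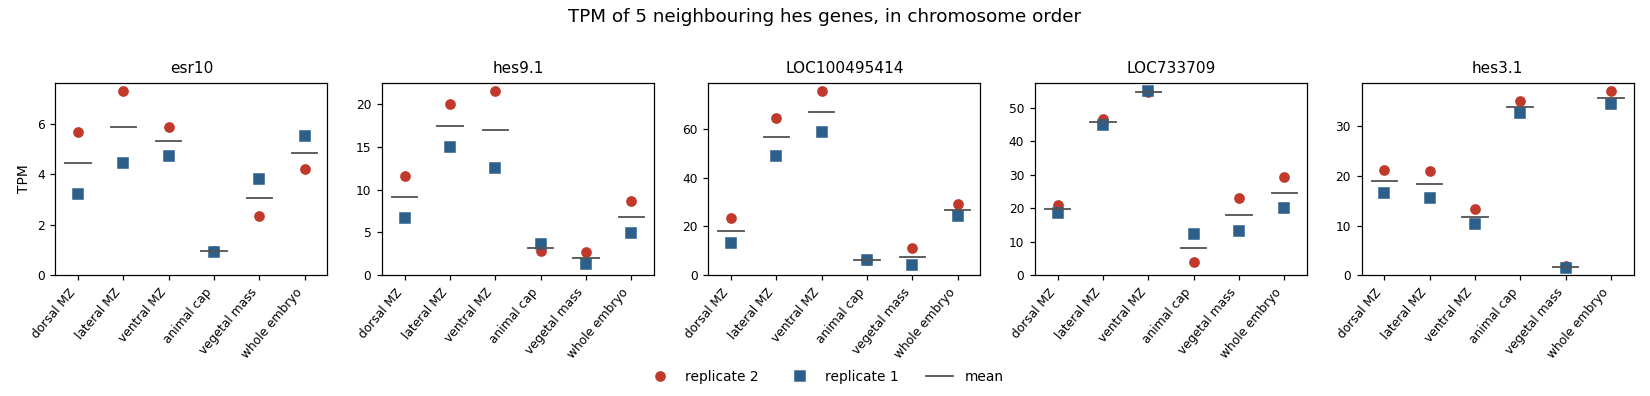
TPM of 5 neighbouring hes genes in the 12 libraries, with panels in RefSeq's chromosome order. Circles are replicate 2, squares replicate 1 and lines their mean, with y axes from 0. Lateral and ventral marginal zones are the highest dissected pieces for hes9.1, LOC100495414 and LOC733709, the animal cap is lowest for esr10, and hes3.1 is high in the animal cap and lowest in the vegetal mass.

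Hes3.3 was rare and marginal too, with 0.65 and 0.60 TPM in dorsal, 1.36 and 1.84 TPM in lateral and 1.21 and 2.38 TPM in ventral marginal zones against 0.30 and 0.10 TPM in animal caps and 0.34 and 0.09 TPM in vegetal masses. Over all 18 tested hes/hey genes, the median log2 fold change of marginal zones over poles was 1.21 with the block, beside 0.01 over all genes tested, and 10 genes were called higher and 2 lower, against 6.1% and 4.75% of all genes tested. Without the block the median was 1.23 and no hes/hey gene was called, where 0.458% of all genes were called higher. For animal caps over vegetal masses the median was 0.04 with the block, beside -0.02 over all genes tested, with 7 genes called higher and 6 lower, against 19.5% and 21.2% of all genes. Without the block 3 were called higher and 0 lower, against 3.64% and 4.4% of all genes.

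Proneural genes were all below 14 TPM in every library. Neurog3, the most abundant on average, had 4.87 and 13.6 TPM in dorsal, 5.07 and 7.37 TPM in lateral and 3.99 and 4.94 TPM in ventral marginal zones, against 2.29 and 3.71 TPM in animal caps and 2.31 and 3.06 TPM in vegetal masses. All marginal libraries were above all pole libraries (log2 fold change 1.19, SE 0.21, edgeR adjusted p = 0.00724 with the block and 0.513 without). Neurog1, a determinant of early neurons, had 2.15 to 4.39 TPM in marginal zones, and 2.21 and 2.88 TPM in animal caps against 0.41 and 0.77 TPM in vegetal masses. Both of its vegetal libraries were below every other region (animal cap over vegetal mass log2 fold change 2.27, SE 0.34, edgeR adjusted p = 0.000675 with the block and 0.0703 without). Neurog2, with 2.06 to 7.74 TPM over the 12 libraries, was not called in any comparison.

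Ascl2 had the largest log2 fold change of animal caps over vegetal masses among the proneural genes tested. Levels were 2.73 and 0.95 TPM in animal caps against 0.11 and 0.00 TPM in vegetal masses, from 48 and 10 counts against 2 and 0. The gene was not confined to the animal cap. In replicate 2, log2(TPM + 0.1) minus the clutch mean was 0.96 in the animal cap, 0.91 in the lateral and 0.85 in the dorsal marginal zone. In replicate 1 these values were 1.42, 0.91 and 0.57. The pooled ratio of counts scaled to depth was 30.9 (exact binomial 95% interval 8.19 to 262), and the call held in both models (edgeR adjusted p = 0.0269 without the block and 0.000502 with it). Neurod1 rested on few reads, with 3.1 and 3.01 counts in animal caps against 24.02 and 13.08 counts in vegetal masses (log2 fold change -2.29, edgeR adjusted p = 0.0239 with the block and 0.123 without). The neurod1 call held in 4 of the 10 fits that left out a library. Neurod1 may also have passed the filter on low counts through the vegetal mass alone, so its p-values are no independent support for a vegetal excess.

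In the Olig family bhlhe22 was concentrated in the vegetal mass. Known from neurons and retina, it had 0.80 to 1.91 TPM in marginal zones, and 0.42 and 0.40 TPM in animal caps against 14.9 and 13.9 TPM in vegetal masses. No region overlapped the vegetal mass in either clutch, and the clutches differed little. Animal caps were below vegetal masses by a log2 fold change of -4.99 (SE 0.36, edgeR adjusted p = 0.000894), past the threshold in both models. Olig4 and olig3 were higher in animal caps than in vegetal masses, at 6.74 and 10.3 TPM against 3.93 and 3.49 TPM for olig4. Olig3 had 0.83 and 2.06 TPM against 0.18 and 0.00 TPM (edgeR adjusted p = 0.00769 for olig4 and 0.00518 for olig3 with the block, and 0.0899 and 0.0651 without). In replicate 1 the ventral marginal zone was above the animal cap for both, at 8.28 TPM for olig4 and 0.98 TPM for olig3. In replicate 2 it was below the animal cap, at 5.75 and 1.1 TPM. The lateral marginal zone was likewise above the animal cap in replicate 1 and below it in replicate 2 for both genes. For olig4 its log2(TPM + 0.1) minus the clutch mean was 0.52 and 0.38, against 0.07 and 0.67 in animal caps of replicates 1 and 2.

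Of 7 PAS genes tested, 2 (arnt and sim1) differed between regions with the block and 0 without, against 29.9% and 3.83% of all genes tested. Arnt, the common partner of the oxygen and dioxin sensors, had 59.6 to 70.7 TPM in marginal zones, and 66.2 and 69.0 TPM in animal caps against 48.7 and 32.7 TPM in vegetal masses (log2 fold change 0.86, SE 0.19, edgeR adjusted p = 0.00702 with the block and 0.111 without). Sim1, a regulator of the hypothalamus, had 2.86 and 0.71 TPM in animal caps against 7.71 and 2.28 TPM in vegetal masses (-1.40, SE 0.31, edgeR adjusted p = 0.00587 with the block and 0.567 without). The circadian gene clock had 13.4 to 20.2 TPM in the regions of replicate 2 and 30.3 to 43.9 TPM in those of replicate 1. The coactivator ncoa3 had 15.4 to 22.9 TPM in replicate 2 and 25.9 to 58.4 TPM in replicate 1, with no regional call for either. Partners outside the domain rule showed a like range. Hif1a, an oxygen sensor, had 131 to 196 TPM and was not called, while epas1, its relative in blood vessels, had 91.3 and 81.6 TPM in animal caps against 35.4 and 30.3 TPM in vegetal masses (log2 fold change 1.53, SE 0.22, edgeR adjusted p = 0.00710 without the block). Arntl, the partner of clock, had 30.0 to 53.1 TPM with no regional call, and sim2 had 2.47 and 0.38 TPM in animal caps against 9.28 and 1.26 TPM in vegetal masses (-1.72, edgeR adjusted p = 0.00125 with the block and 0.591 without).

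Leucine zipper genes included mycl1, the most abundant member. Mycl1 had 258 and 209 TPM in dorsal, 342 and 338 TPM in lateral and 344 and 355 TPM in ventral marginal zones, and 316 and 263 TPM in animal caps against 264 and 159 TPM in vegetal masses (animal cap over vegetal mass log2 fold change 0.60, SE 0.18, edgeR adjusted p = 0.0229 with the block and 0.164 without). Usf2, a broadly expressed activator, lay between 147 and 188 TPM in all 12 libraries and was called in none of the regional comparisons. Srebf2, a regulator of cholesterol synthesis, had 76.0 and 34.7 TPM in animal caps against 118 and 64.1 TPM in vegetal masses (-0.62, SE 0.10, edgeR adjusted p = 0.00115 with the block and 0.567 without). The related lipid regulator srebf1 (2.12 and 0.61 against 4.17 and 1.23 TPM) and the lysosomal and pigment cell regulators tfeb (2.22 and 0.71 against 3.74 and 1.75 TPM) and tfec (0.71 and 0.18 against 2.26 and 2.7 TPM) had the same direction and passed with the block only (edgeR adjusted p = 0.0196, 0.0154 and 0.00717 with it, and 0.745, 0.618 and 0.0937 without). Without the block, the log2 fold change of srebf1 was 0.12 when vegetal mass replicate 1 was left out. Tfap4, a growth regulator downstream of Myc in mammals, had 38.6 and 44.0 TPM in animal caps against 17.3 and 19.5 TPM in vegetal masses, with 23.0 to 36.2 TPM in marginal zones (log2 fold change 1.30, SE 0.14, edgeR adjusted p = 9.56e-05 with the block and 0.12 without). Mga, which pairs with Max, passed in the same direction (0.78, SE 0.25, adjusted p = 0.0328 with the block and 0.684 without). The mga call held in 5 of the 10 fits that left out a library.

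Among the other tissue-specific genes, mesp2 was nearly absent from the animal cap and ptf1a was low outside the vegetal mass. Mesp2, a regulator of somite and heart mesoderm, had 1.13 and 0.35 TPM in dorsal, 4.21 and 2.02 TPM in lateral and 5.38 and 2.44 TPM in ventral marginal zones, and 0.10 and 0.00 TPM in animal caps against 5.01 and 3.27 TPM in vegetal masses. Animal caps held 1 and 0 counts against 51 and 22 in vegetal masses, and the ratio of vegetal masses to animal caps was 68.4 of counts scaled to depth (exact binomial 95% interval 11.9 to 2740). The call for animal caps against vegetal masses held in both models (edgeR adjusted p = 0.0128 without the block), while dorsal marginal zones, below ventral ones in both clutches, were called only with it (log2 fold change -2.30, SE 0.46, adjusted p = 0.0461, against -2.29, SE 0.72, adjusted p = 1 without). That call held in 4 of the 10 fits that left out a library. Ptf1a, known from pancreas and cerebellum, had 0.00 to 0.32 TPM in the 6 marginal zone libraries, and 0.05 and 0.31 TPM in animal caps against 5.99 and 2.7 TPM in vegetal masses (-4.63, SE 0.83, edgeR adjusted p = 0.00182 with the block and 0.0853 without). Outside the vegetal mass ptf1a lay near the floor. It may have passed the filter on low counts through that region alone, so its p-values are no independent support for a vegetal excess. Figla, an oocyte gene, was the most abundant of the group and had 18.0 and 7.94 TPM in animal caps against 40.9 and 29.3 TPM in vegetal masses (-1.39, SE 0.22, edgeR adjusted p = 0.000936 with the block and 0.203 without). Tcfl5, with 2.14 to 6.77 TPM, and hand2, with 0.72 to 5.85 TPM, were not called between regions.

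Counted over members, the comparison of animal cap with vegetal mass gave the most calls of the regional contrasts between 2 sets of pieces. Without the block 6 members were higher in animal caps (ascl2, hes3-like, hes3.1, hes5.1, tcf12 and tcf3) and 2 lower (bhlhe22 and mesp2), against 3.64% and 4.4% of all genes tested. With the block 18 of 55 were higher and 16 lower, against 19.5% and 21.2%. Without the block, 2 members remained when either animal cap library was left out, 5 without vegetal mass replicate 1 or ventral marginal zone replicate 1, and 3 without vegetal mass replicate 2. With the block these fits gave 23 to 33 members. In the fits without the block, TMM normalization moved the median log2 fold change of all genes in this comparison by 0.16 relative to library size alone. Each of the 34 log2 fold changes called with the block was larger in size than this shift. The fit with the block was not repeated without TMM, so whether those 34 calls hold on library size alone was not tested.

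**Figure D4:**
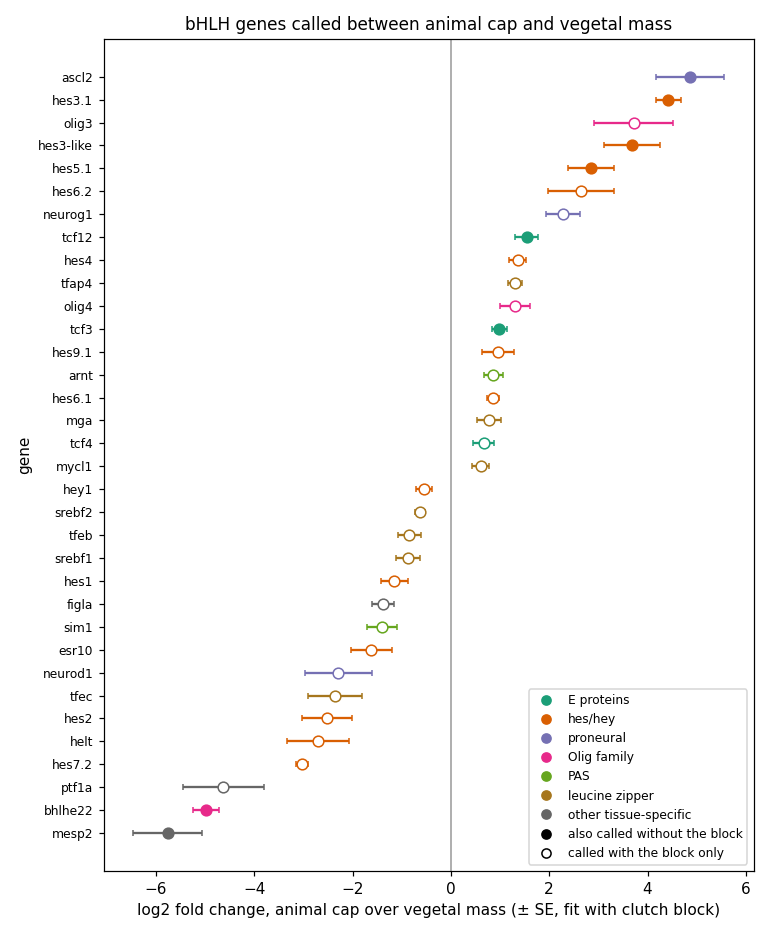
Log2 fold change of the 34 bHLH genes called between animal cap and vegetal mass with clutch as a block, positive where animal caps were higher, with bars of ± 1 SE and colour by group. Filled points also passed without the block. The 18 genes above 0 include all 3 E proteins, and mesp2, bhlhe22 and ptf1a lie farthest below 0.

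For dorsal against ventral marginal zones no member was called without the block, where 0.0445% of all genes were. The unadjusted edgeR p was under 0.05 for 8 of 55 members and for 414 of 15727 genes tested. DESeq2 called 3 members, a count given without its share of all genes, so it does not set bHLH genes apart. With the block hes1 and hes3-like were higher dorsally and hes6.1, LOC100495414 and mesp2 lower, against 1.02% and 0.432% of all genes tested. Only hes6.1 kept its call in all 10 fits that left out a library. The count fell to 1 without dorsal or ventral marginal zone replicate 2, to 2 without ventral marginal zone replicate 1 and to 3 without either lateral marginal zone library.

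For marginal zones against poles, 15 members were higher with the block and 5 lower, against 6.1% and 4.75% of all genes tested. The 15 comprised 10 hes/hey genes, tcf12, tcf3, neurog1, neurog3 and mesp2. The call held in 4 of the 10 fits that left out a library for tcf3, in 5 for mesp2 and in 6 for LOC733709. Not all were above both poles. Tcf3 had 96.6 and 91.7 TPM in animal caps against means of 90.7 and 91.7 TPM over the marginal zones. Hes7.2 was higher in the vegetal mass of replicate 2 than in any marginal zone. By mean TPM, hes3.1 was level with the poles in replicate 2 and below them in replicate 1, as given above. Mesp2 was 0.981 times the poles in replicate 2 and 1.4 times in replicate 1. Bhlhe22, helt, hey1 and neurod1 were among the 5 lower ones, and each of these 4 was highest in the vegetal mass. Leaving out a library kept the call of bhlhe22 in 9 of 10 fits, of helt in 8, of hey1 in 1 and of neurod1 in 0. The count of 20 became 13 without animal cap replicate 2 or ventral marginal zone replicate 1.

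Dissected regions were compared with whole embryos through the mean of their 5 log levels. The regions enter with equal weight, so a gene confined to 1 region can come out lower than in the whole embryo with no change in any cell. No member was called without the block, against 0.0126% of all genes. The unadjusted edgeR p was under 0.05 for 4 of 55 members and for 469 of 15848 genes tested. DESeq2 called 3 members, again without its share of all genes, so this count does not set bHLH genes apart. With the block bhlhe22, hes3.1, hes4 and hes7.2 were lower in dissected regions, against 1.69% of all genes tested. The count of 4 became 9 without vegetal mass replicate 1, 7 without vegetal mass replicate 2 and 2 without whole embryo replicate 1.

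Hes4 was the clearest of these, because whole embryos exceeded every piece of the same clutch. Dissected pieces had 43.9 to 106 TPM in replicate 1 and 50.2 to 113 TPM in replicate 2, against 144 and 172 TPM in whole embryos, which were 1.36 and 1.53 times the highest piece (log2 fold change -1.25, SE 0.11, edgeR adjusted p = 0.00016 with the block and 0.332 without). For hes3.1 the whole embryo was 1.06 and 1.05 times the highest piece, whereas for bhlhe22 (4.32 and 3.56 TPM in whole embryos) and hes7.2 it lay within the range of the pieces. The log2 fold change of hes7.2, -0.57 with the block (SE 0.08), was 0.08 without the block when whole embryo replicate 2 was left out. Among members with a mean of at least 1 TPM, whole embryos were above all 5 regions of their clutch in both clutches for 5 of 46 (hes4, hes3.1, mga, usf3 and tcf4), or 10.9%, against 2.14% of all genes. None was below all regions in both clutches, against 1.15% of all genes.

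Between the clutches, 28 of 55 members differed over the 6 pairs of libraries, 15 higher in replicate 2 and 13 lower, against 31.9% and 34% of all genes tested. Of 18 hes/hey genes 9 were called higher in replicate 2 and 0 lower (median log2 fold change 0.52), while of 11 leucine zipper genes 1 was higher and 6 lower (-0.61), beside a median of -0.03 over all genes. Proneural genes gave 3 higher and 0 lower, PAS genes 1 and 3, and other tissue-specific genes 1 and 4, with no call among E proteins and Olig genes. The shift from TMM normalization was not computed for this comparison, so the split by direction may depend on the scale. In each of the 6 pairs the library of replicate 2 also held fewer expected counts. The gap ran from 26335531 against 27352329 in lateral to 14634582 against 29166548 in dorsal marginal zones. Whether depth has a part in the split was not tested. Arnt, called higher at a log2 fold change of 0.26, was at -0.0057 with limma on log2(TPM + 1).

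The 5 largest differences were those of sim1, hand2, srebf1, hes7.1 and helt. Sim1 had 0.33 to 2.28 TPM in replicate 2 against 2.40 to 7.71 TPM in replicate 1, a log2 fold change of -1.98 (SE 0.24, edgeR adjusted p = 2.51e-05). Hand2, a heart and limb regulator, had 0.72 to 1.59 TPM against 2.69 to 5.85 TPM (-1.95, SE 0.18), and srebf1 had 0.42 to 1.23 TPM against 2.12 to 4.17 TPM (-1.65, SE 0.14). In none of these 3 genes did the clutches overlap. Hes7.1 was higher in replicate 2 in 5 of the 6 pairs, vegetal mass being the exception (log2 fold change 1.28, SE 0.34, edgeR adjusted p = 0.0113), and helt was higher in all 6 (1.22, SE 0.40, adjusted p = 0.0195). Hes7.2, higher in replicate 2 in 6 of 6 pairs, differed by 1.18 (SE 0.06, edgeR adjusted p = 4.69e-08). Since the 2 clutches had 1 library per region each, no difference between clutches in a regional profile was tested.

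**Figure D5:**
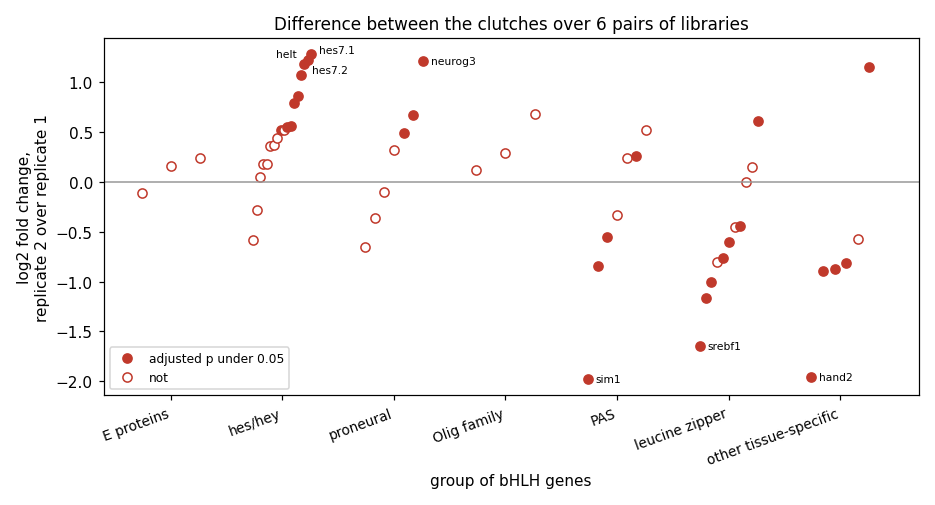
Log2 fold change of replicate 2 over replicate 1 for the 55 tested bHLH genes, by group, each point a gene and filled where the edgeR adjusted p was under 0.05. Hes/hey points lie mostly above 0 and leucine zipper points mostly below, with sim1, hand2 and srebf1 the lowest at -1.98, -1.95 and -1.65.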

How the data were processed

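PolyA+ RNA was sequenced from 5 dissected regions and whole embryos, with 2 libraries per group. Reads were assigned by the authors to gene models of genome assembly v9 using RSEM (version 1.2.12). The deposited expected counts are estimated reads per gene model, not normalized between libraries. The deposited TPM values were computed by the authors from these counts with a correction for transcript length. Expected counts were rounded to whole numbers, filtered (filterByExpr), scaled by TMM factors and fitted with robust glmQLFit in edgeR 4.0.16, followed by glmQLFTest (R 4.3.3). Comparisons of regions used the 10 region libraries, and those with whole embryos or between clutches used all 12. Benjamini-Hochberg adjustment covered every gene tested, and an adjusted p under 0.05 was called.

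Replicate numbers pair the samples, since each stands for 1 clutch per the study's methods. Deviations from group means correlated at 0.657 to 0.823 over 15 pairs of groups. The test without the clutch as a block and that with it are both given where a printed adjusted p differs in its call between them. The alternatives were DESeq2 1.42.0, library size without TMM, no filter, limma 3.58.1 applied to log2(TPM + 1) or to log2(TPM + 0.1), only the libraries compared, and each library left out. Fits with the block and 1 library left out were added after seeing the data.

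Members and lists were chosen with earlier results of these data known. Named were members called between regions or against whole embryos in either model, the E proteins, the 3 members of each group with the highest mean TPM, the 5 with the largest difference between clutches, and partner genes. A member that meets this rule is not reported here. Tests were run on simulated counts in which a gene's clutch shift was the same in every region. That setting is the one the block assumes, so it cannot show how the block behaves where clutches differ by region. Counting without strand leaves overlapping and antisense genes uncertain. No sequence is shown, as none was used here. Tables were made with pandas 2.3.3, numpy 2.4.6 and scipy 1.17.1 and plots with matplotlib 3.10.9, under Python 3.11.15.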

Additional observations from a re-analysis of the deposited data

How the results depend on the processing

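Counts of bHLH genes called rose with the clutch as a block and with DESeq2 in each comparison other than that between clutches. Under the other alternatives the counts rose, stayed the same or fell by comparison. With the clutch as a block they were 36 between regions (3 without), 34 for animal caps against vegetal masses (8 without), 5 for dorsal against ventral marginal zones (0 without), 20 for marginal zones against poles (1 without) and 4 for dissected regions against whole embryos (0 without). In the same order DESeq2 gave 23, 19, 3, 11 and 3. Between regions, library size without TMM gave 6, no filter 8, and limma 7 on log2(TPM + 1) and 8 on log2(TPM + 0.1). For animal caps against vegetal masses library size gave 10, no filter 8, limma 13 and 15, and only the libraries compared gave 2. For marginal zones against poles, library size gave 3, no filter 4, and limma 5 and 4. Library size, no filter and limma gave 0 for dorsal against ventral marginal zones and for dissected regions against whole embryos. These counts stand without the share of all genes, so they do not compare bHLH genes with other genes. With 1 library left out, the counts without the block were 1 to 3 between regions, 2 to 7 for animal caps against vegetal masses, 0 for dorsal against ventral marginal zones, 0 to 1 for marginal zones against poles, 0 for dissected regions against whole embryos and 26 to 33 between clutches. With the block they were 29 to 35, 23 to 33, 1 to 6, 13 to 26 and 2 to 9 in the order above.

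Over 1530 values of named genes under an alternative, 1338 kept their direction and call, 108 passed the threshold anew, 80 no longer passed it and 4 changed sign. The 1338 include genes not called without the block that stayed uncalled, so they are not a count of calls that held. With the block, 54 values passed anew and 9 were the same. With 1 library left out, the log2 fold change of srebf1 in animal caps over vegetal masses ran from -1.8445 to 0.1174 (without vegetal mass replicate 1) and that of hes7.2 in dissected regions over whole embryos from -0.9924 to 0.0819 (without whole embryo replicate 2), and arnt between clutches was -0.0057 and -0.0066 with limma on log2(TPM + 1) and log2(TPM + 0.1). The cause was not tested. The count of members at 1 TPM or more in whole embryos, 47, stayed within 1.5 times under every alternative limit or replicate. Depth limited the genes under about 3 counts per library, and groups of 2 libraries limit every test.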

Other observations

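Totals of the groups moved with clutch and region in different ways. Leucine zipper genes summed to 535 TPM in whole embryo replicate 2 against 696 TPM in replicate 1, and PAS genes to 96.8 and 137 TPM, while the sum of hes/hey genes was 763 TPM in replicate 2 against 568 TPM in replicate 1. Olig genes summed to 8.09 and 13.4 TPM in animal caps against 19.6 and 19.0 TPM in vegetal masses, where bhlhe22 supplied most of the total. Proneural genes summed to 17.1 and 17.8 TPM in animal caps against 16.3 and 16.5 TPM in vegetal masses. Neurog2 was 25.6% and 31.8% of that sum in animal caps and 36.0% and 47.0% in vegetal masses. These sums carry no test. LOC101730541, a zipper gene whose closest human protein is MXD1, was at 0 in whole embryo replicate 2 and had 5.84 TPM in replicate 1, while the 5 regions of replicate 2 had 0.81 to 5.05 TPM.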
